A study of Mus musculus with 12 samples.

Results

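A set of 10 genes of bacterial sensing was followed in activated mouse B cells that did or did not secrete IL-10: Tlr4, Cd14, Ly96, Cd180, Ly86, Myd88, Tlr1, Tlr2, Tlr7 and Tlr9. They were taken by name from the gene spots of the arrays, every probe included, which gave 13 of 55681 probes for 10 of 34821 gene names. Of these genes, 8 had 1 probe, Tlr4 had 2 and Tlr7 had 3. There were 4 groups of 3 arrays, and all groups were B cells purified from the spleens of female Balb/c mice and kept with a CD40 agonist for 2 days, with lipopolysaccharide (LPS) present for the last 5 hours. The IL-10+ HDM and IL-10- HDM groups came from mice made allergic and asthmatic with house dust mite (HDM), and the IL-10+ control and IL-10- control groups came from control mice. IL-10+ and IL-10- cells were separated by flow cytometry after an IL-10 secretion assay, so no group was free of LPS and no group held unsorted cells. Nothing in the labels ties the replicates to separate mice or cultures, and p-values then measure only the spread between these samples, which may be technical.

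TLR4 binds LPS together with MD-2, the small secreted protein encoded by Ly96, and CD14 hands LPS to that pair. RP105, encoded by Cd180, has an extracellular part like that of TLR4 but no TIR signalling domain, and pairs with MD-1, encoded by Ly86, at the surface of B cells. MYD88 is the adaptor that most Toll-like receptors share, TLR2 works at the cell surface with TLR1 or TLR6 as a receptor of bacterial lipoproteins, and TLR7 and TLR9 read RNA and DNA inside endosomes.

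A level below is the log2 of a probe's processed signal minus the log2 of its array's 75th percentile, so a level of 0 is the 75th percentile of that array. Levels of different probes are not compared, because probes differ in how strongly they bind. Well above background is the scanner software's own flag for a spot that is brighter than its surroundings, and a level without that flag is only a bound. A probe printed on several spots was counted as well above background when a share of at least 0.5 of its averaged spots had the flag. Il10 itself, the check of the sort, had levels of 6.42 to 6.97 on the IL-10+ HDM arrays, 6.92 to 7.57 on the IL-10+ control arrays, -5.43 (not well above background) to -0.05 on the IL-10- HDM arrays and -0.04 to 1.12 on the IL-10- control arrays. One array, the IL-10- HDM array 3, was unlike the others. Its mean correlation with the other arrays was 0.742, against 0.841 to 0.879 for the other 11 arrays, and 67.7% of the tested probes were well above background on it, against 74.5% to 88.9%. All 6 IL-10+ arrays and the IL-10- control arrays 1 and 2 were on 1 slide, and the IL-10- control array 3 and all 3 IL-10- HDM arrays were on the other, so sort and slide cannot be told apart in HDM mice. Only the IL-10- control group was on both slides. Where slide is added to the fit as a block below, the slide effect thus rests on that group's array 3 against its arrays 1 and 2.

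None of the 12 tested probes of these genes passed an adjusted p of 0.05 in any of the 6 comparisons made with limma. In control mice Il10 did not pass either, although its levels did not overlap: its sort difference was 6.56 ± 1.19 on the log2 scale (SE; adjusted p = 0.22), a 94.6-fold difference that missed the threshold. Averaged over both kinds of mice, Il10 did pass, at 7.59 ± 0.84 (SE; adjusted p = 0.012). The averaged differences of Cd180 and Tlr2 between IL-10+ and IL-10- cells were 1.69 and 1.30. In control mice, 3 of the 12 probes, those of Cd180, Ly96 and Tlr1, had all IL-10+ levels above all IL-10- levels, and 1, that of Tlr9, had all of them below; over all 37648 tested probes, 4.83% did not overlap in the first way and 4.67% in the second. In HDM mice only Myd88 did not overlap, with all IL-10+ levels below all IL-10- levels, against 22.1% of all probes that did not overlap in one direction or the other. Between HDM and control mice, Tlr1 alone did not overlap in IL-10- cells, higher in HDM as were 5.33% of all probes, and none of the 12 probes was free of overlap in IL-10+ cells, where 9.73% of all probes were. With the 6 IL-10+ arrays set against the 6 IL-10- arrays, 0 of the 12 probes and 0.938% of all probes did not overlap.

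Calls at an adjusted p under 0.05 were rare on these arrays as a whole. They made up 0.0159% of all tested probes for the sort in control mice, 0.197% for the sort in HDM mice and 0.345% for the sort averaged over both kinds of mice. For HDM against control mice they made up 0.00531% in IL-10+ cells and 0.0717% in IL-10- cells, and for the interaction, which is the sort difference in HDM mice minus that in control mice, 0%. At an unadjusted p under 0.05, the probes of these genes numbered 1 of 12 in the sort in control mice (Tlr1), 0 in the sort in HDM mice, 1 in the averaged sort (Tlr2), 0 for HDM in IL-10+ cells, 1 for HDM in IL-10- cells (Tlr1) and 1 in the interaction (Tlr1). The share of all probes at that p was 4.14%, 13.2%, 9.31%, 2.18%, 9.40% and 6.49% in the same order.

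**Figure D1:**
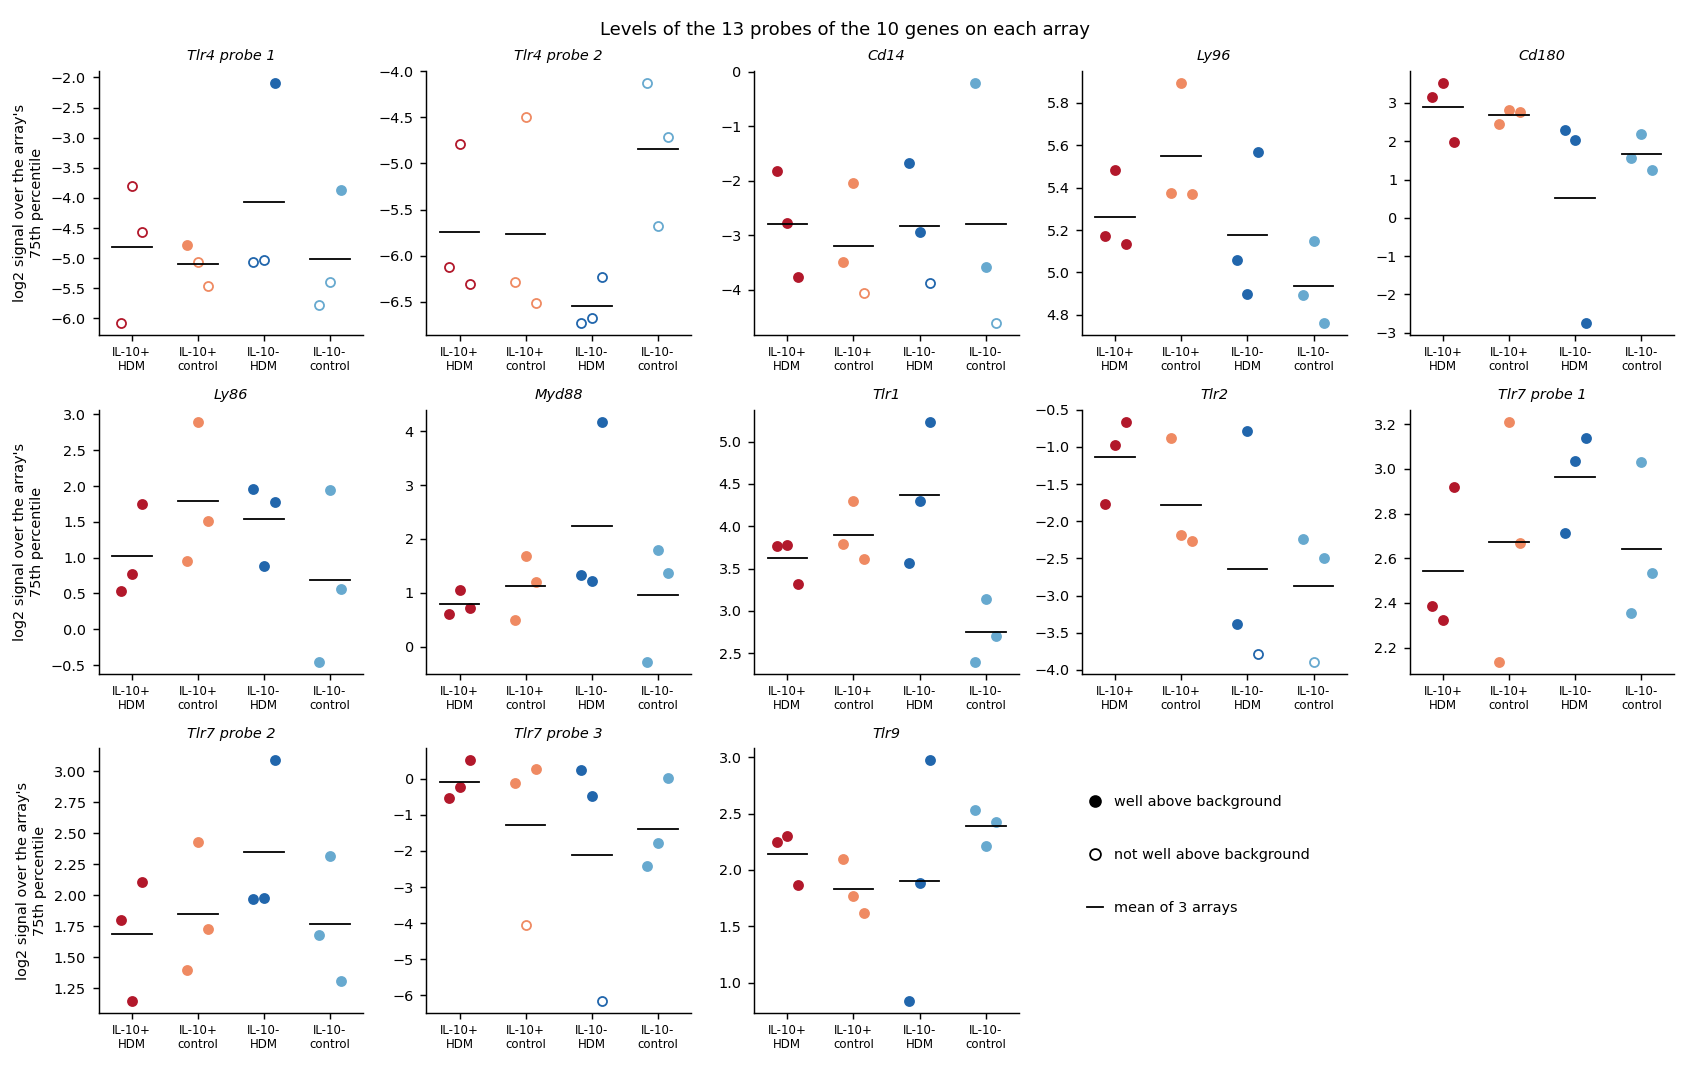
Level of each of the 13 probes on each of the 12 arrays (log2 signal over the array's 75th percentile), by group, with a line at the mean of 3 arrays; filled points were well above background and open points were not. The second Tlr4 probe has open points only, and the Cd180 point of the IL-10- HDM array 3 lies at -2.75, below every other Cd180 point.

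Tlr4, the signalling receptor for LPS, was near or below background in most samples. Its first probe, for the transcript NM_021297 at chr4:66503470-66503529 (mm9, + strand), was well above background on 3 of 12 arrays: the IL-10+ control array 1 at -4.78, the IL-10- HDM array 3 at -2.09 and the IL-10- control array 3 at -3.86. On the other arrays its signal lay between -6.07 and -3.80 and counts as a bound only. The second probe, 86547 bases further along the chromosome at chr4:66590077-66590136 and assigned to the transcript ENSMUST00000107365, was well above background on 0 of 12 arrays and was not tested. No difference between groups is given for Tlr4, since no group had more than 1 array with a measured level.

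Cd14, which passes LPS to TLR4, was faint and uneven, with 9 of 12 arrays well above background. Its level was -1.83, -2.77 and -3.76 on the IL-10+ HDM arrays, -3.48, -2.05 and -4.05 (the last not well above background) on the IL-10+ control arrays, -1.67, -2.94 and -3.88 (the last not well above background) on the IL-10- HDM arrays, and -0.20, -3.58 and -4.60 (the last not well above background) on the IL-10- control arrays. All 4 groups overlapped, and the range was widest in IL-10- control cells, where array 1 was the highest of all 12. The averaged sort difference was -0.18 ± 0.77 (SE; 95% interval -1.89 to 1.54; adjusted p = 0.96), and it was positive without that array, at 0.47. With slide as a block the same difference was -1.99. The slide effect in that fit sets the IL-10- control array 3, which was not well above background, against arrays 1 and 2 of that group.

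Ly96, whose product MD-2 is the part of the complex that holds LPS, had the steadiest level of the 10 genes, with an SD of 0.32 over the 12 arrays. Its probe is shown because it spans a splice junction: the 60 bases run over chr1:16696289-16699561 (mm9, + strand), 3273 bases of genome, in the transcript NM_016923.
Ly96: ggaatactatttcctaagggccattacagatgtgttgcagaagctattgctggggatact

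The Ly96 level was 5.17, 5.48 and 5.13 on the IL-10+ HDM arrays and 5.38, 5.90 and 5.37 on the IL-10+ control arrays. It was 5.06, 4.90 and 5.57 on the IL-10- HDM arrays and 4.89, 5.15 and 4.76 on the IL-10- control arrays. In control mice the lowest IL-10+ level was above the highest IL-10- level, while in HDM mice the IL-10- HDM array 3 was the highest of its 6. The difference in control mice was 0.61 ± 0.33 (SE; 95% interval -0.13 to 1.35; adjusted p = 1.00), a 1.53-fold difference, and it was 0.53 within the slide that holds both groups. Averaged over both kinds of mice it was 0.35 ± 0.23 (SE; adjusted p = 0.69). In these sorted bulk samples, more cells with the transcript and more transcript per cell cannot be told apart.

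Cd180, encoding RP105, had a positive sort difference in both kinds of mice, and most of it in HDM mice came with 1 array. Its probe lies at chr13:103496269-103496328 (mm9, + strand) in the transcript NM_008533, starts at base 1883 of that transcript, and is shown because the value rests on this single spot per array.
Cd180: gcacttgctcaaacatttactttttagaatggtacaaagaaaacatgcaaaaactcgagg

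Cd180 had levels of 3.15, 3.53 and 1.98 on the IL-10+ HDM arrays and 2.44, 2.81 and 2.76 on the IL-10+ control arrays. The IL-10- HDM arrays had 2.28, 2.04 and -2.75, and the IL-10- control arrays 1.56, 2.18 and 1.25. Of the 6 IL-10+ arrays, 5 lay above all 6 IL-10- arrays, and the IL-10+ HDM array 3 was the one that did not. The averaged difference was 1.69 ± 0.79 (SE; 95% interval -0.07 to 3.44; unadjusted p = 0.058, adjusted p = 0.55), a 3.22-fold difference. Without the IL-10- HDM array 3 it was 0.87 ± 0.33 (SE; 95% interval 0.12 to 1.62; unadjusted p = 0.027, adjusted p = 0.46).

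Within control mice the Cd180 difference was 1.01 ± 1.12 (SE; adjusted p = 1.00), and 0.80 within 1 slide. In HDM mice it was 2.37 ± 1.12 (SE; 95% interval -0.12 to 4.85; adjusted p = 0.40), and 0.73 without the IL-10- HDM array 3. The sign of the HDM difference in IL-10- cells depended on that array: -1.14 with it and 0.49 without it. The interaction also turned, at 1.36 ± 1.58 (SE; adjusted p = 0.84) with the array and -0.28 without it. The sort difference was positive in each of these fits and passed the adjusted threshold in none of them.

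Ly86, whose product MD-1 RP105 needs to reach the cell surface, overlapped between all groups. It had levels of 0.54, 0.77 and 1.75 on the IL-10+ HDM arrays, 0.95, 2.90 and 1.51 on the IL-10+ control arrays, 1.96, 0.88 and 1.78 on the IL-10- HDM arrays, and -0.45, 1.94 and 0.56 on the IL-10- control arrays. The IL-10+ control array 2 was the highest of the 12 and the IL-10- control array 1 the lowest. The averaged difference was 0.29 ± 0.50 (SE; 95% interval -0.81 to 1.39; adjusted p = 0.88), it ran over 0.0066 to 0.60 with 1 array left out, and its sign turned under the median scaling of the deposited value table. In IL-10+ cells the HDM arrays averaged 1.02 ± 0.64 and the control arrays 1.79 ± 1.00 (SD, n = 3 each), a difference of -0.77 ± 0.70 (SE; adjusted p = 1.00). Across the 12 arrays the levels of Cd180 and Ly86 had a Pearson r of -0.07, and 0.26 over the 11 arrays without the IL-10- HDM array 3.

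Myd88, the shared adaptor, was well above background on every array and had its highest level on the array that stood apart. It had levels of 0.61, 1.05 and 0.71 on the IL-10+ HDM arrays, 0.49, 1.69 and 1.19 on the IL-10+ control arrays, 1.32, 1.22 and 4.18 on the IL-10- HDM arrays, and -0.28, 1.80 and 1.37 on the IL-10- control arrays. In HDM mice all IL-10+ levels were below all IL-10- levels, with the nearest arrays at 1.05 and 1.22. The difference there was -1.45 ± 0.81 (SE; 95% interval -3.25 to 0.35; adjusted p = 0.45), and -0.48 ± 0.61 (SE; adjusted p = 0.81) without the IL-10- HDM array 3. In IL-10- cells the HDM arrays averaged 2.24 ± 1.68 and the control arrays 0.97 ± 1.10 (SD, n = 3 each); the difference of 1.27 was 0.30 without that array.

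Because the Myd88 and Tlr2 probes are each printed 10 times on the array, they show how far the spots of 1 array disagree, an error that leaves out amplification, labelling and hybridisation. For Myd88 the SD between spots of an array was 0.044 to 0.095 on the log2 scale, against an SD between arrays of a group of 0.23 to 1.68. For Tlr2, a dimmer probe, it was 0.13 to 0.59 between spots, against 0.57 to 1.63 between arrays. The ranges of the 2 SDs overlapped for Tlr2, and not for Myd88.

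**Figure D2:**
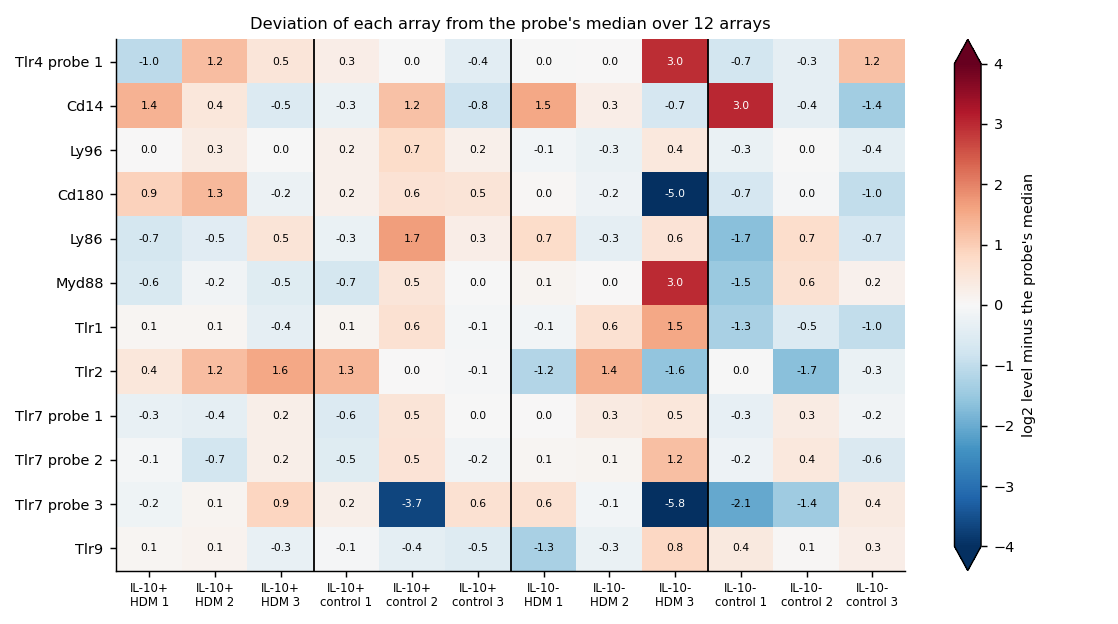
Deviation of each array from the probe's median over the 12 arrays (log2), for the 12 tested probes, Tlr4 mostly as bounds, with black lines between groups. The column of the IL-10- HDM array 3 holds deviations of -5.0 for Cd180 and 3.0 for Myd88.

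Tlr1 and Tlr2, whose products pair as a lipoprotein receptor, are shown with their probes because both lie in matching stretches of related genes. The Tlr1 probe is at chr5:65316115-65316174 (mm9, - strand) in NM_030682, and the Tlr2 probe at chr3:83640344-83640403 (mm9, - strand) in NM_011905. Capitals mark the bases that are the same in both when the probes are laid side by side without gaps at their best offset, 29 of 47 bases or 61.7%. The longest exact run that either probe shared with a probe of another gene on the array was 13 bases. Matches of the probes to whole transcripts of other genes were not examined.
Tlr1: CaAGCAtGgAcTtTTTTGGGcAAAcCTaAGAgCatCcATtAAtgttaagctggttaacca
Tlr2: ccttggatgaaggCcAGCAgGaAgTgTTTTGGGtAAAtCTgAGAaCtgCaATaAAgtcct

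Tlr1 was lowest in IL-10- control cells, the one group of the 4 that overlapped with none of the others. It had levels of 3.77, 3.77 and 3.32 on the IL-10+ HDM arrays, 3.79, 4.30 and 3.61 on the IL-10+ control arrays, 3.56, 4.30 and 5.24 on the IL-10- HDM arrays, and 2.40, 3.14 and 2.70 on the IL-10- control arrays. In order of their means, the groups ran IL-10- HDM at 4.37, IL-10+ control at 3.90, IL-10+ HDM at 3.62 and IL-10- control at 2.75, and neighbours overlapped except for the last pair.

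In control mice the Tlr1 sort difference was 1.15 ± 0.46 (SE; 95% interval 0.14 to 2.17; unadjusted p = 0.030, adjusted p = 1.00), a 2.23-fold difference. In HDM mice it ran the other way, at -0.75 ± 0.46 (SE; adjusted p = 0.49). The interaction was -1.90 ± 0.65 (SE; 95% interval -3.34 to -0.47; unadjusted p = 0.014, adjusted p = 0.71), so the opposite signs did not pass the test after adjustment. Averaged, the difference was 0.20 ± 0.32 (SE; adjusted p = 0.87), it ran over 0.0023 to 0.42 with 1 array left out, and its sign turned under the scaling of the deposited value table.

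Tlr1 in IL-10- cells was 3.07-fold higher in HDM than in control mice, a log2 difference of 1.62 ± 0.46 (SE; 95% interval 0.60 to 2.64; unadjusted p = 0.0052, adjusted p = 0.34). This was the smallest p of any of the 12 probes in any comparison. Without the IL-10- HDM array 3 the difference was 1.19 ± 0.40 (SE; unadjusted p = 0.016, adjusted p = 0.47). Within the slide that holds the 3 IL-10- HDM arrays and 1 IL-10- control array it was 1.66. In IL-10+ cells, all on 1 slide, the HDM arrays averaged 3.62 ± 0.26 and the control arrays 3.90 ± 0.36 (SD, n = 3 each), and the groups overlapped.

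Tlr2 was dim, with 10 of 12 arrays well above background, and lay higher in IL-10+ cells on average. Its level was -1.77, -0.98 and -0.66 on the IL-10+ HDM arrays and -0.88, -2.19 and -2.27 on the IL-10+ control arrays. It was -3.38, -0.78 and -3.78 (the last not well above background) on the IL-10- HDM arrays and -2.24, -3.89 (not well above background) and -2.49 on the IL-10- control arrays. The IL-10+ and IL-10- arrays overlapped, since the IL-10- HDM array 2 was the second highest of the 12.

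The averaged Tlr2 difference was 1.30 ± 0.57 (SE; 95% interval 0.04 to 2.57; unadjusted p = 0.045, adjusted p = 0.53), a 2.47-fold difference. It was 1.02 ± 0.56 (SE; adjusted p = 0.65) without the IL-10- HDM array 3 and 1.68 with slide as a block. In HDM mice it was 1.51 ± 0.80 (SE; adjusted p = 0.44). In IL-10+ cells the HDM arrays averaged -1.14 ± 0.57 and the control arrays -1.78 ± 0.78 (SD, n = 3 each), a difference of 0.64 ± 0.80 (SE; adjusted p = 1.00).

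Tlr7, the endosomal RNA receptor, had 3 probes that did not all read alike. Probe 1 (chrX:163743146-163743205, mm9, - strand) and probe 2 (chrX:163742863-163742922) belong to NM_133211, and probe 3 (chrX:163747214-163747273), 4008 bases away, is assigned to ENSMUST00000112161. Probe 1 ranged from 2.33 to 2.92 in IL-10+ HDM, 2.14 to 3.21 in IL-10+ control, 2.71 to 3.14 in IL-10- HDM and 2.35 to 3.03 in IL-10- control cells, so all groups overlapped. Its averaged difference was -0.19 ± 0.27 (SE; 95% interval -0.80 to 0.41; adjusted p = 0.86).

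Tlr7 probes 1 and 2 followed each other, with a Pearson r of 0.84 over the 12 arrays. Probe 3 was well above background on 10 arrays and lay at -4.04 on the IL-10+ control array 2 and -6.14 on the IL-10- HDM array 3, the arrays with the highest and second highest levels of probe 1. Its r was -0.52 with probe 1 over the 12 arrays and 0.038 over the 10 arrays where all 3 probes were well above background.

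Tlr9, the endosomal DNA receptor, was tight in 3 groups and spread in IL-10- HDM cells. Its probe lies at chr9:106128979-106129038 (mm9, + strand) in NM_031178. It had levels of 2.25, 2.30 and 1.87 on the IL-10+ HDM arrays, 2.09, 1.77 and 1.62 on the IL-10+ control arrays, 0.84, 1.88 and 2.97 on the IL-10- HDM arrays, and 2.53, 2.21 and 2.42 on the IL-10- control arrays. In control mice every IL-10+ level was below every IL-10- level, with a difference of -0.56 ± 0.49 (SE; 95% interval -1.65 to 0.53; adjusted p = 1.00) and -0.54 within 1 slide. The averaged difference was -0.16 ± 0.35 (SE; adjusted p = 0.91), and 0.11 without the IL-10- HDM array 3. The HDM difference in IL-10- cells was -0.49 with that array. Without it, it was -1.03 ± 0.38 (SE; limma, unadjusted p = 0.025, adjusted p = 0.55). The sort difference in HDM mice was 0.24 with the array and 0.78 without it. The interaction was 0.80 with it and 1.34 without it (limma, unadjusted p = 0.029, adjusted p = 0.72). These were the ends of the ranges found when each array was left out in turn. The ranges were -1.03 to 0.036 for HDM in IL-10- cells, -0.29 to 0.78 for the sort in HDM mice and 0.27 to 1.34 for the interaction.

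**Figure D3:**
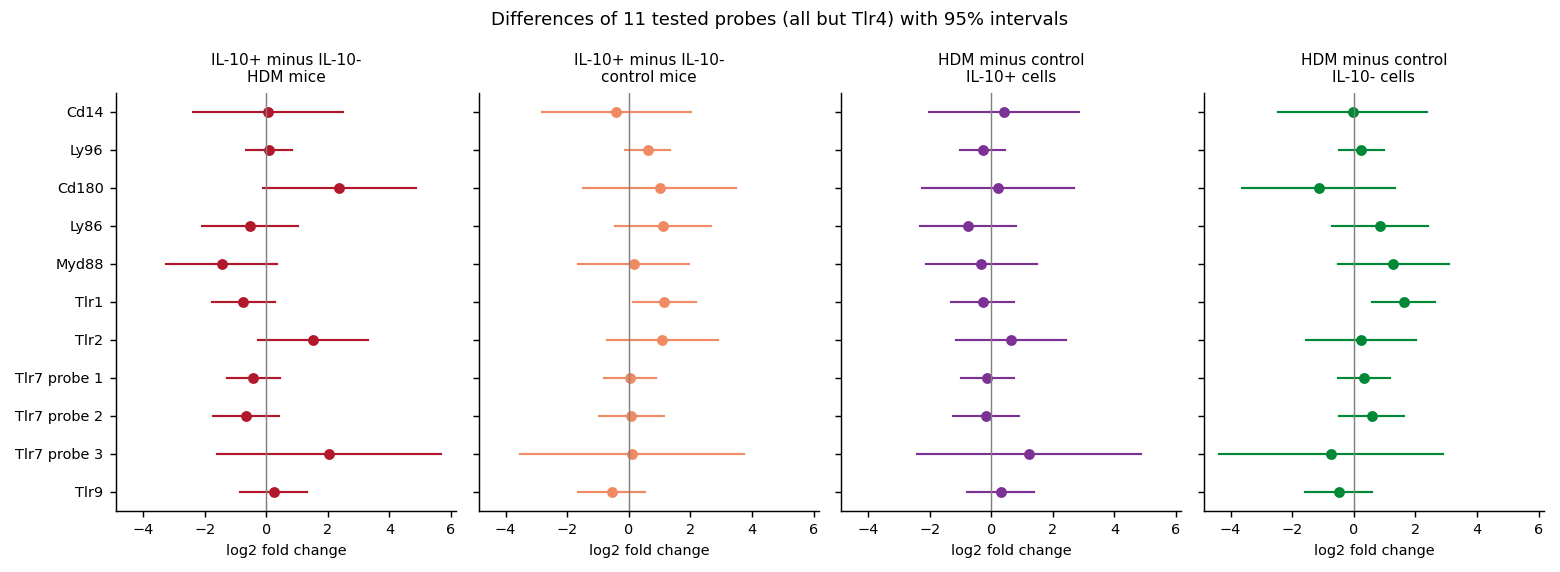
Log2 fold changes of 11 tested probes, Tlr4 left out, with 95% intervals from limma, for IL-10+ minus IL-10- cells in HDM and in control mice and for HDM minus control mice in IL-10+ and IL-10- cells. Only the Tlr1 intervals in control mice and in IL-10- cells leave out 0, before adjustment.

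Over the lead probes of 9 of the genes, Tlr4 left out and each gene read by its probe with the highest mean level, the sort differences had no common direction. In control mice 7 of 9 were positive, with a median of 0.61 against -0.04 over all genes tested. In HDM mice 5 of 9 were positive, with a median of 0.047 against 0.16 over all genes. For HDM against control mice, 4 of 9 were positive in IL-10+ cells, with a median of -0.13 against 0.074 over all genes, and 6 of 9 in IL-10- cells, with a median of 0.24 against -0.04.

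The IL-10- HDM array 3 held the highest level of 5 and the lowest of 2 of the 12 tested probes, 7 in all. The same array held the highest or lowest level of 44.9% of all tested probes. Cd180 and Tlr7 probe 3 were lowest there, and Tlr4, Myd88, Tlr1, Tlr7 probe 2 and Tlr9 were highest. What makes the array differ was not tested.

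Levels were then set against each other across arrays, as a description in which all points share 12 arrays that differ in signal and slide. Without the IL-10- HDM array 3, r was 0.73 for Ly96 with Cd180, 0.65 for Cd180 with Tlr1, and 0.61 for Ly96 with Tlr1, over 11 arrays. With it, these were -0.03, -0.41 and 0.65. Myd88 with Ly86 had an r of 0.55 over 12 arrays and 0.75 over 11, and Ly86 with Tlr7 0.73 both ways. Other pairs ran against each other: Cd180 with Myd88 had -0.75 over 12 arrays and 0.14 over 11, and Ly86 with Tlr9 -0.42 and -0.63.

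Among 7827 other genes well above background on all arrays, those most like each gene were found by Pearson r over the 12 arrays. The values are thus the highest of many, and how high unrelated genes would reach was not tested. Ly96 was followed most closely by Glipr1 (r = 0.95), Cldn25 and Fam126a, and Tlr1 by Zfp955a (0.95), Ifngr2 and TUG1. For Tlr7 they were Dusp14 (0.95), Cd274 and Gmppb, for Ly86 Marc2 (0.93), Fam188a and Zbtb8os, and for Tlr9 Cenpp (0.90), Ccdc112 and Cplx3. For Cd180 they were Optn, Ankrd12 and Snx12, with r of 0.98, 0.97 and 0.96, which were 0.90, 0.82 and 0.71 without the IL-10- HDM array 3. For Myd88 they were Alkbh6, Ppp2r2d and Psma6, with r of 0.96, 0.96 and 0.95, which were 0.88, 0.84 and 0.87 without it.

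The rest of the pathway gave no calls either. Of 47 further genes, 43 had a tested probe, and none passed an adjusted p of 0.05 in any of the 6 comparisons with limma. At an unadjusted p under 0.05 they numbered 2 for the sort in control mice, 6 for the sort in HDM mice, 4 for the averaged sort, 1 for HDM in IL-10+ cells, 4 for HDM in IL-10- cells and 3 for the interaction. These were 4.65%, 14.0%, 9.30%, 2.33%, 9.30% and 6.98% of the 43, near the shares of all probes given above. Tlr3, Tlr5, Tlr12 and Lbp were too dim to be tested. With dim genes included, the median averaged difference was -0.10 over 4 other Toll-like receptors, -0.25 over 6 chaperones and accessory proteins, 0.22 over 16 adaptors and kinases, -0.18 over 7 inhibitors, 0.22 over 6 transcription factors and 0.66 over 4 genes linked to RP105, against 0.037 over all genes.

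From each of these lists, the pair of genes with the smallest p in the averaged sort is named, with the difference in log2 units. Among the other receptors these were Tlr8 at -0.18 and Tlr13 at -0.18, and among chaperones Slc15a4, an endolysosomal transporter that TLR7 and TLR9 signalling needs, at -0.67, and Unc93b1, which escorts the endosomal receptors, at 0.41. Ikbkb, the kinase that marks the NF-kappaB inhibitor for destruction, had the smallest p of them all, with a difference of -0.93 ± 0.25 (SE; unadjusted p = 0.0040, adjusted p = 0.23). Tab1, an activator of the kinase TAK1, was well above background on 2 of 6 IL-10+ and 1 of 6 IL-10- arrays, so no difference is given for it.

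Irf7, an interferon-regulatory factor downstream of TLR7 and TLR9, had a difference of 3.29 ± 1.18 (SE; unadjusted p = 0.019, adjusted p = 0.43), and it was 0.56 with slide as a block. It was well above background on 6 of 6 IL-10+ and 3 of 6 IL-10- arrays, so part of the IL-10- mean is a bound. Nfkb1, an NF-kappaB subunit, had 0.54 ± 0.22 (SE; adjusted p = 0.49). The inhibitors Irak3 and Sigirr, which restrain Toll-like receptor signalling, were each well above background on 4 of 6 IL-10+ and 1 of 6 IL-10- arrays, and no difference is given for them. Btk and Lyn, kinases through which RP105 signals in B cells, had 1.13 and 1.08, with adjusted p of 0.68 and 0.73. With 1 array left out these ran over 0.34 to 1.65 for Btk and 0.34 to 1.57 for Lyn. Btk had -0.15 in control mice and 2.41 in HDM mice.

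**Figure D4:**
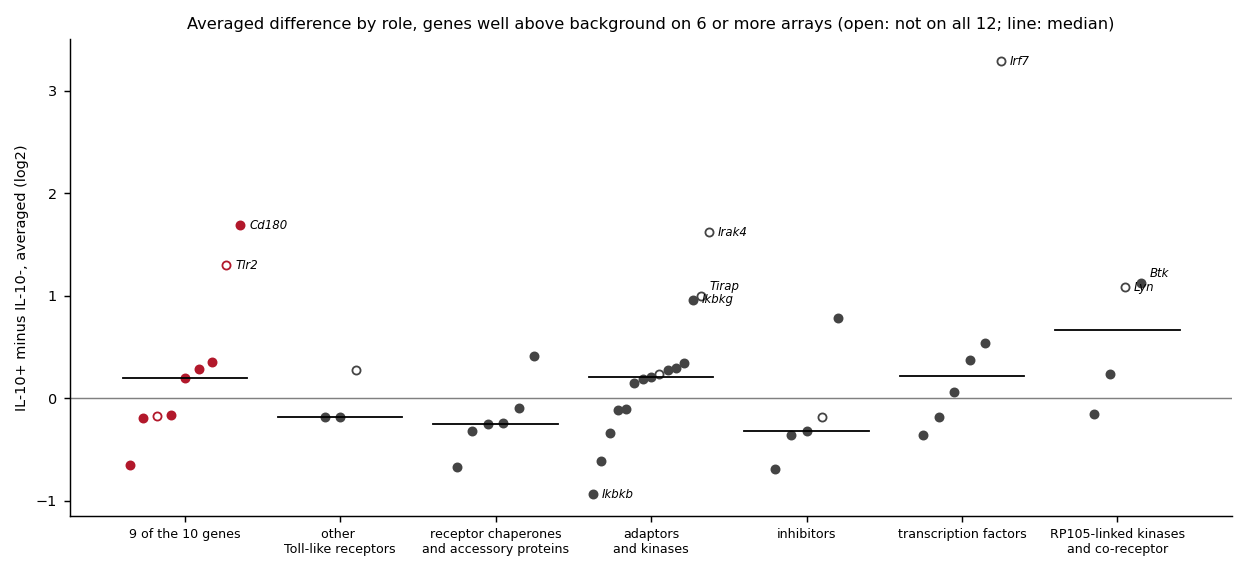
Averaged IL-10+ minus IL-10- difference (log2) of each gene's lead probe, by role, for genes well above background on 6 or more of the 12 arrays, with a line at the median of the points shown; open points were not well above background on every array. Irf7 lies at 3.29, and the 9 genes shown of the 10 lie between -0.65 for Myd88 and 1.69 for Cd180.

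The arrays carried the markers of the labelled cell type, and 6 or 7 of 7 B cell markers were well above background on every array. Summed over the 7 markers as multiples of the 75th percentile, the B cell level was 69.7 to 84.9 on the IL-10+ HDM arrays, 81.4 to 82.2 on the IL-10+ control arrays, 66.4 to 81.4 on the IL-10- HDM arrays and 59.1 to 69.0 on the IL-10- control arrays. In control mice it was thus higher on every IL-10+ array than on every IL-10- array, as were Cd180, Ly96 and Tlr1. The single markers did not share that direction: 4 of 7 were positive there, with a median difference of 0.086 against -0.04 over all genes. Cd79a, Ms4a1 and Cd22 were the negative ones, at -0.13, -0.13 and -0.05, and the highest of the 7 was at 1.36. None of the 7 was called, and the part of B cell content in the differences of Cd180, Ly96 and Tlr1 was not tested.

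Cd14, Tlr2 and Tlr4 are also made by myeloid cells, so those markers were read beside them. Of 13 monocyte and macrophage markers with a probe, 8 were well above background on each IL-10+ HDM array, 7 to 9 on the IL-10+ control arrays, 5 to 7 on the IL-10- HDM arrays and 6 to 11 on the IL-10- control arrays. Itgam was bright on all 12 arrays, and without it their summed level was 10.8 to 14.7, 7.34 to 13.3, 8.73 to 10.4 and 9.67 to 18.5 in the same order of groups. Csf1r, Cd68 and Fcgr1 were well above background on all 12 arrays, Spic on 10, Emr1 on 9, C1qb on 6, Lyz2 on 5, Cd163 and Cx3cr1 on 2, C1qa on 1 and Ccr2 on 0.

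Of the 14 monocyte and macrophage markers listed, 9 were tested, and none was called. For the sort in HDM mice 7 of the 9 were positive, with a median difference of 0.46 against 0.16 over all genes, and in control mice 4 of the 9, with a median of -0.0095 against -0.04. Averaged over both kinds of mice 6 of the 9 were positive, with a median of 0.11 against 0.037. Emr1, which encodes the macrophage marker F4/80, was well above background on 3 of 3 IL-10+ HDM and 0 of 3 IL-10- HDM arrays, and was at least 9.14-fold higher in IL-10+ HDM cells (adjusted p = 0.054), set against the lowest signals that are well above background on the IL-10- HDM arrays or the probe's own, whichever was higher. Lyz2 was well above background on 0 of 3 IL-10+ HDM and 1 of 3 IL-10- HDM arrays. In the same comparison the Tlr2 difference was positive, at 1.51, and the Cd14 difference was 0.047 ± 1.09 (SE; adjusted p = 0.99 with limma).

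Markers of other cells were present in part. Of 7 neutrophil markers, Cxcr2 was well above background on 9 arrays, Camp on 8, Ngp and Ly6g on 3, Mpo and S100a9 on 1 and S100a8 on 0. Of 7 dendritic cell markers, Siglech and Flt3 were so on 12, Zbtb46 on 11, Cd209a on 9, Xcr1 on 8, and Itgax and Clec9a on 0. Of 5 T cell markers, Cd4, Cd3e and Cd8a were so on 12, Cd3g on 10 and Cd3d on 2, and of 3 NK cell markers Ncr1 on 12, and Klrb1c and Eomes on 1. The part of such cells in the Cd14 and Tlr2 levels was not tested.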

How the data were processed

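Each of 12 samples was hybridised to 1 one-colour array. Per the labels' protocols, the authors amplified bead-isolated mRNA by PCR (SuperAmp) and labelled it with Cy3, and per the file headers the deposited scanner files come from Agilent Feature Extraction 10.7.3.1 on design 028005, annotated on mm9. The values used are the deposited processed signal intensity and the well-above-background and outlier flags, per the file headers. The authors' deposited table of values is a ratio, each processed signal divided by its array's median, as found by setting it against the scanner files.

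Levels are log2 of the processed signal minus each array's 75th percentile over gene spots; outlier spots were left out and spots of a probe averaged. Probes well above background on at least 3 of 12 arrays were tested (37648, after 79 with only outlier spots on an array were left out) with limma 3.58.1 in R 4.3.3, a mean for each of 4 groups, and Benjamini-Hochberg adjustment over all of them; with 3 arrays per group, their number limits the precision. The fit had 8 residual and 2.15 prior degrees of freedom. Intervals are 95% intervals of limma. The script was tested on simulated data.

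The genes, lists and tests were chosen with earlier results of these data known. Named were all 10 genes, Il10, the 2 genes of each pathway list with the smallest averaged p where none was called, and the 3 genes most correlated with each gene that was measured on all arrays. All 10 symbols are current RefSeq symbols (GRCm38.p6). The deviations of same-numbered IL-10+ and IL-10- samples had correlations of 0.021 to 0.12, and those of different-numbered samples -0.16 to 0.063. In HDM mice every same-numbered value was above every different-numbered one. Numbers were not taken as pairs in the main fit, because the labels do not say that a number marks a shared mouse. Alternatives were normexp with quantile normalization (offset 50), quantile normalization, the value table, no filter, 1 probe per gene, a slide block, 1 slide alone, a replicate block, and leaving out each array. Exon and UTR annotation was not used here. The value of 1 monocyte and macrophage marker is not reported here.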

Additional observations from a re-analysis of the deposited data

How the results depend on the processing

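No probe of the 10 genes was called under any alternative: over 60 differences of their lead probes and 1160 refitted values, the lowest adjusted p was 0.10, 1077 kept their sign and 83 changed it. Of the averaged differences given above, the scaling of the value table turned Ly86 to -0.039 and Tlr1 to -0.13, and a slide block turned Tlr13 to 0.010. Sign changes of the other differences under these settings are not listed here. Leaving out 1 array gave ranges with both signs for several of the differences. Averaged, these were Cd14 (-0.63 to 0.47), Tlr9 (-0.42 to 0.11), Tlr8 (-0.40 to 0.022), Tlr13 (-0.53 to 0.11) and Unc93b1 (-0.036 to 0.74). Between HDM and control mice in IL-10- cells they were Cd180 (-2.02 to 0.49) and Tlr9 (-1.03 to 0.036). For the sort in HDM mice they were Cd14 (-0.48 to 0.63) and Tlr9 (-0.29 to 0.78). The Cd180 interaction also had both signs (-0.28 to 2.24). For the sort in HDM mice the median difference of all probes was 0.23 in the main fit, -0.57 with the value table and 0.0053 with quantile normalization.

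Calls over all probes moved more than those of these genes. For the sort in control mice, 6 calls were 13 with normexp, 10 with quantile normalization and 0 with the value table, and 0 to 9 with 1 array left out. For the sort in HDM mice, 74 calls were 40 with normexp, 41 with quantile normalization, 6 with the value table, 42 with 1 probe per gene and 0 with a slide block, and 3 to 392 with 1 array left out. For the averaged sort, 130 calls were 11 with the value table, 67 with 1 probe per gene and 0 with a slide block, and 51 to 276 with 1 array left out. For HDM in IL-10+ cells, 2 calls were 0 with normexp, 4 with quantile normalization and 1 with the value table, with no filter, with 1 probe per gene, with a slide block and within slide 1, and 0 to 3 with 1 array left out. For HDM in IL-10- cells, 27 calls were 2 with normexp, 5 with the value table, 12 with 1 probe per gene and 0 with a slide block, and 2 to 255 with 1 array left out. The interaction had 0 calls, 3 with 1 probe per gene and 0 to 22 with 1 array left out. The highest of these counts came without the IL-10- HDM array 1 in 4 of the 6 comparisons, the lowest without the IL-10+ HDM array 2 for the sort in HDM mice and the averaged sort. The cause was not tested. With the replicate number as a block, calls were 2 for the sort in control mice, 28 in HDM mice, 66 averaged, 1 for HDM in IL-10+ cells, 1 for HDM in IL-10- cells and 0 for the interaction; the labels do not say that a number marks a shared mouse.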
